A study of Drosophila melanogaster with 12 samples.

Results

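The profile described here is that of whole heads of 2-day-old control flies, the arm without an RNAi construct in a study of ND-75 knockdown in *Drosophila melanogaster*. It was read from the control columns of the 2 deposited tables that hold them, joined by gene identifier, which gave 4 of the 12 libraries of the series and 17444 features. The sample labels give the control genotype as nSybGal4/w[1118]. The study's methods name the controls *Tub-Gal80ts;nSyb-Gal4* hemizygotes, so the flies carried the driver, and by that account the Gal4 repressor, with no RNAi construct. *nSyb-Gal4* is active in neurons only, and a driver without a target gene is the usual control for one. Each library came from a pool of 20 snap-frozen heads, 10 male and 10 female. The labels do not say whether the 4 pools came from separate crosses or when in the day the heads were taken, so the spread between pools may be technical, biological or both. They are called pools 1 to 4 below, after the replicate number in the labels, which gives them no order.

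A fly head is a mixed organ. The compound eyes hold the photoreceptors, which detect light with opsins and amplify it through a G protein, a phospholipase C and TRP channels. The brain holds neurons and glia, and around it lie the head fat body, which stores lipid and secretes yolk and immune proteins, the muscles of the mouthparts, blood cells, cuticle and the chemosensory organs. In a bulk sample of this kind fewer cells of a type and less RNA per cell cannot be told apart. Levels are given as FPKM, the deposited unit, which is the count scaled to feature length and library size, so that genes of different length can be compared.

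The 4 pools had 20072771, 24503367, 27354627 and 30321577 counts. Counts were found for 13834, 13898, 12966 and 14615 features, so pool 3 had the fewest features with a count although its depth was the second highest. At least 1 FPKM was reached by 9275, 9205, 9189 and 9344 features. Of all features 8695 (49.8%) were at 1 FPKM or more in every pool and are called detected below, 4999 had a mean of at least 10 FPKM, 762 of at least 100 and 89 of at least 1000. At the other end, 1340 features had 0 counts in all 4 pools. A count of 0 over the 102252342 counts of the 4 pools allows up to 3 counts, or 0.0293 CPM (counts scaled to the library total), for counting error only. Without pool 3, which stood apart from the others as described below, 8903 features were detected.

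A small number of features made up much of the counts. The 10 highest features held 13.5, 12.9, 15.1 and 10.9% of the counts in the 4 pools, the 100 highest 32.7, 32.3, 36.2 and 30.4%, and the 1000 highest 68.6, 69.1, 72.3 and 67.6%. The highest of all was mt:lrRNA, the large ribosomal RNA of the mitochondrion, at 26222, 30644, 45205 and 18472 FPKM in pools 1 to 4. Next came *ninaE*, which encodes Rhodopsin 1, the opsin of the outer photoreceptors, at 12623, 12534, 10794 and 9548 FPKM. The yolk protein gene *Yp3* followed with 9358, 8391, 10737 and 8383 FPKM, and then *Nplp3*, annotated as a neuropeptide-like precursor, with 6193, 7863, 9592 and 8151 FPKM. A mitochondrial, an eye, a fat body and a neuropeptide-like transcript thus led the list, and each was at 6193 FPKM or more in every pool. The 25 highest features included 6 of the mitochondrial genome, 4 of the eye lists, the 3 yolk protein genes and 3 ribosomal protein genes, and 18 of the 25 were among the 25 highest in every pool. Without pool 3, 22 of the 25 remained among the 25 highest. *CG7203* (3256 ± 699 FPKM, SD, n = 4), *EbpIII* (2192 ± 328) and *CG2233* (2092 ± 205), of which only the middle one carries a descriptive name, were also among the 25, and *RpLP2*, the highest ribosomal protein gene, had a mean of 2125 FPKM. Of the 100 highest features 46 were cytoplasmic ribosomal protein genes and 8 had no name beyond a CG number.

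**Figure D1:**
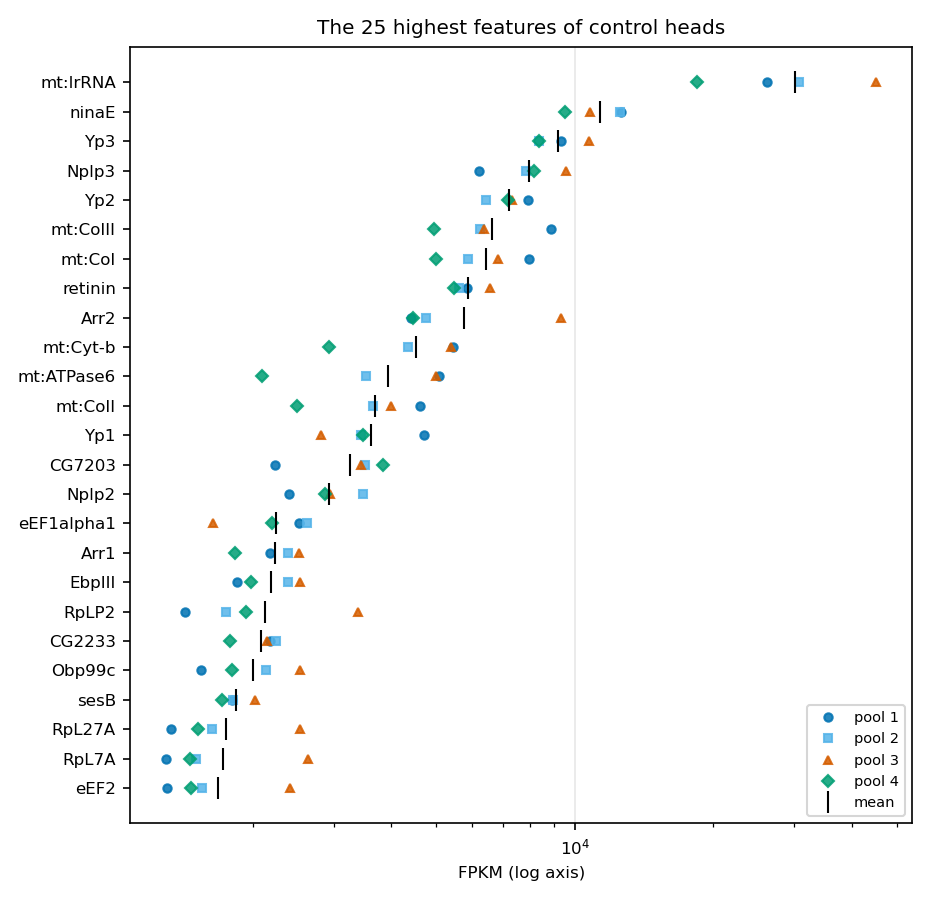
FPKM (log axis) of the 25 features with the highest mean over the 4 control pools, with 1 point for each pool and a bar for the mean. mt:lrRNA is highest in every pool, Arr2 has pool 3 at 9353 FPKM against 4424 to 4767 in the others, and eEF1alpha1 has pool 3 lowest.

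Protein-coding genes took 95.9, 95.4, 93.8 and 96.8% of the counts, and 8358 of 12648 (66.1%) were detected. Their median level was 5.88 FPKM. The class annotated as rRNA took 3.60, 4.18, 5.71 and 2.63%, nearly all from mt:lrRNA. The small mitochondrial rRNA, mt:srRNA, had 267, 266, 238 and 117 FPKM, far below its partner in every pool. Pool 4 was lowest for both.

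Noncoding RNAs took 0.410, 0.363, 0.390 and 0.493% of the counts, with 111 of 1608 detected. The highest was lncRNA:CR42862 on chromosome 3L, at 380.3, 283, 219.5 and 463 FPKM. hpRNA:CR18854, a hairpin RNA gene of a kind that gives rise to small interfering RNAs, had 122, 186, 483 and 154 FPKM, with pool 3 highest. lncRNA:noe had 180.5, 213, 317 and 196 FPKM, again with pool 3 highest, and lncRNA:CR31451 had 56.7, 42.2, 26.6 and 58.9 FPKM. lncRNA:roX1 and lncRNA:roX2, which coat the male X chromosome in dosage compensation, were present at 39.1 ± 9.94 and 7.88 ± 1.05 FPKM (SD, n = 4), and roX1 exceeded roX2 by 4.99 ± 1.15 times within a pool. Small RNA classes were close to absent from these libraries. Detected were 13 of 167 snoRNAs, 7 of 92 tRNAs, 3 of 12 snRNAs and 2 of 46 pre-miRNAs, the highest pre-miRNA being mir-9381 with 6, 3, 0 and 3 counts. The highest snRNA, snRNA:7SK, had 22, 45, 73 and 39 counts. Among pseudogenes 22 of 166 were detected, led by 28SrRNA-Psi:CR45860, a fragment of ribosomal DNA, at 16.1, 25.5, 17.1 and 23.4 FPKM.

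Transposable element insertions are counted one by one in these tables, and 177 of 2700 (6.56%) were detected. They took 0.0852, 0.0669, 0.0510 and 0.0991% of the counts. INE-1, an old and immobile element, made up 123 of the 177 detected insertions (69.5%) and 1060 of all 2700 (39.3%). Of the detected insertions 94 (53.1%) lay on chromosome 4, the small dot chromosome, where 423 (15.7%) of all insertions lie. Within the span of a protein-coding gene, on either strand, lay 128 (72.3%) of the detected ones and 1506 (55.8%) of all. INE-1 copies within such a span were 98 (55.4%) of the detected insertions and 716 (26.5%) of all. The kit keeps no strand, so reads of a host gene and of an insertion within it cannot be told apart. By FPKM the highest was FBti0061444, an INE-1 copy of 84 bases on chromosome 4 from 1041513 to 1041596 within a coding gene, at 89.2, 69.1, 49.9 and 100.2 FPKM. By counts it was FBti0019430, a Doc element on chromosome 3R from 25324412 to 25328927, with 1161, 1222, 637 and 1913 counts. Summed over all copies, INE-1 had 259, 199, 171 and 324 CPM, Doc 66.2, 57.3, 27.3 and 70.7, and copia, a retrotransposon with 30 insertions in the tables and 0 detected, 25.7, 20.4, 16.3 and 22.9. For INE-1 and Doc pool 3 was lowest and pool 4 highest.

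By chromosome, protein-coding genes with a mean of at least 1 FPKM had median levels of 11.8 FPKM on the X, 12.2 on 2L, 12.7 on 2R, 11.5 on 3L, 12.4 on 3R and 18.0 on chromosome 4. The X carries 1437 such genes and the 4 autosome arms 7133. The X median over that of the arms was 0.964, 0.943, 0.981 and 0.977 in the 4 pools (0.966 ± 0.0173, SD), in heads that were equally male and female. Over all protein-coding genes, with no minimum, the ratio was 1.18, so its direction depends on that minimum. Of 80 genes on chromosome 4, 76 (95%) reached 1 FPKM, against 66.7 to 71.3% on the other arms and the X. The chromosome 4 median over that of the arms was 1.77, 1.52, 1.03 and 1.63, and the value nearest 1 was that of pool 3. These genes are long (median length 4380.5 bases, against 2102 on the arms). In pool 3 all features of 4000 to 8000 bases had a median deviation of -0.49 log2 units from the mean of the pools. Whether length had a part in the ratio of pool 3 was not tested. On the Y chromosome 0 of 4 protein-coding genes reached 1 FPKM, and of its 15 features the highest mean was 0.0476 FPKM.

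The 31 gene lists used below follow the tissues of the head and organs that should be missing from it. They had 948 genes, which held 38.4, 38.6, 43.1 and 36.2% of the counts. Their order by median level ran from ribosomal proteins (985 FPKM) through glycolysis and TCA cycle enzymes (361 FPKM), nuclear OXPHOS subunits (234 FPKM) and phototransduction genes (227 FPKM) to lists with medians below 0.1 FPKM, which were the chemoreceptor, midgut, reproductive and larval gland lists. For 10 of 31 lists the median member was above the 90th percentile of protein-coding genes. All members of the opsin, phototransduction, lens, pan-neuronal, transmitter, glia and clock lists were detected, while 0 members of the testis and accessory gland, ovary and eggshell, and larval salivary glue lists were. The share to set beside these and the counts below is the 66.1% of all protein-coding genes that were detected.

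**Figure D2:**
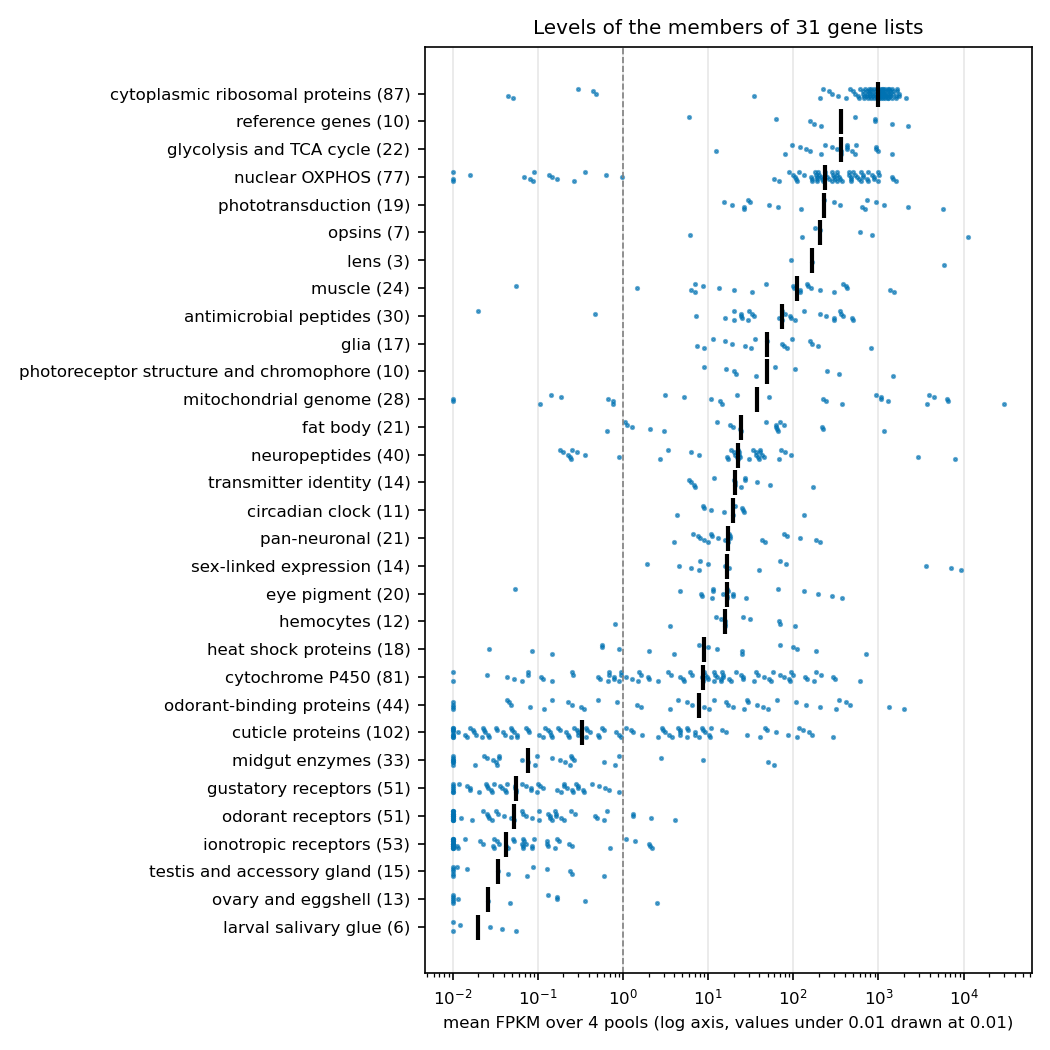
Mean FPKM over 4 control pools (log axis) of every member of 31 gene lists, with 1 point for each gene, a bar at the list's median and a dashed line at 1 FPKM. The number of members stands in brackets. The medians of the lists of the eye, nervous system, muscle and metabolism lie to the right of the line. Those of the reproductive organ, larval gland and chemoreceptor lists lie to its left, and single members of several lists lie on the other side.

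The eye was the most visible tissue. Its 39 listed genes (opsins, phototransduction, photoreceptor structure and lens) took 6.71, 6.77, 6.97 and 6.10% of all counts. All 7 opsin genes were detected and spanned over 3 orders of magnitude in the order *ninaE*, *Rh4*, *Rh3*, *Rh6*, *Rh2*, *Rh5* and *Rh7*. *ninaE* (FBgn0002940, chromosome 3R from 19886255 to 19888206) averaged 11375 ± 1480.4 FPKM (SD, n = 4) and alone held the second rank of all features. The UV opsins of the inner photoreceptor R7 came next. *Rh4* (FBgn0003250, chromosome 3L from 16852527 to 16862517) had 661, 849, 1249 and 607 FPKM, and *Rh3* (FBgn0003249, chromosome 3R from 20081060 to 20082450) had 514, 584, 834 and 493 FPKM. In each pool *Rh4* exceeded *Rh3*, by 1.28, 1.46, 1.50 and 1.23 times. The opsins of R8 were lower. *Rh6*, the green-sensitive one, had 179.8, 205, 279.5 and 151 FPKM and *Rh5*, the blue-sensitive one, 116, 141, 156 and 99.2 FPKM. *Rh6* exceeded *Rh5* in every pool, by 1.55, 1.46, 1.79 and 1.52 times.

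The opsin of the ocelli, *Rh2*, had 169.6, 185, 232 and 134 FPKM, between *Rh6* and *Rh5* in every pool. *Rh6* and *Rh2* overlapped in range, so that only the order within a pool separates them. *Rh7*, an opsin described in the brain, had 6.02, 6.51, 5.35 and 6.93 FPKM. The ratios between inner photoreceptor opsins varied less between pools than that of *ninaE* to them. *ninaE* over the sum of *Rh3* and *Rh4* was 10.7, 8.75, 5.18 and 8.68, with pool 3 lowest, whereas the sum of *Rh3* and *Rh4* over that of *Rh5* and *Rh6* was 3.97, 4.14, 4.79 and 4.40.

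Downstream of the opsins, all 19 phototransduction genes were detected and took 3.36, 3.45, 4.01 and 3.22% of the counts. The arrestins, which end the response of an activated opsin, led them. *Arr2* had 4424, 4767, 9353 and 4463 FPKM and *Arr1* had 2182, 2394, 2527 and 1831 FPKM, so *Arr2* exceeded *Arr1* in every pool, by 2.03, 1.99, 3.70 and 2.44 times. Pool 3 set *Arr2* apart but not *Arr1*. *Gbeta76C*, the beta subunit of the eye's G protein, had 962, 1069, 1773 and 904 FPKM. The channel genes *trp* (879, 969, 1143 and 783 FPKM) and *trpl* (622, 617, 829 and 684 FPKM) kept a ratio of 1.38 ± 0.175 (SD, n = 4). The phospholipase C gene *norpA* had 156, 130.4, 64.2 and 141 FPKM, and the myosin gene *ninaC* 852, 810.1, 587 and 706 FPKM. Both were lowest in pool 3, in which *Arr2* and *Gbeta76C* were highest. *norpA* and *ninaC* have lengths of 8296 and 5425 bases, against 1547 for *Arr2* and 1466 for *Gbeta76C*. What part length had in this contrast was not tested. Of the 19 genes 9 were highest and 9 lowest in pool 3, close to the shares over all 9713 features that passed the expression filter (43.4% highest and 39.0% lowest). The lowest member, *inaE*, which encodes a diacylglycerol lipase, was at 15.2 ± 2.17 FPKM.

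Photoreceptor structure and chromophore genes were all detected (10 of 10). *Pdh*, a retinol dehydrogenase of the pigment cells, had 1098, 1128, 2347 and 1363 FPKM. *chp*, which encodes the adhesion protein chaoptin, had 445, 378, 183 and 358 FPKM, and *Cpn*, a calcium buffer of photoreceptors, 309, 292, 141 and 249.8 FPKM. In pool 3 *Pdh* (945 bases) was highest and *chp* (4872 bases) and *Cpn* (2853 bases) were lowest. Of the lens genes, *retinin* had 5835, 5625, 6553 and 5486 FPKM and held the eighth rank of all features. *Crys*, the crystallin of the corneal lens, had only 82.3, 94.9, 95.2 and 106 FPKM. *Cpr72Ec* had 89.2, 96.6, 273 and 209 FPKM, with pools 3 and 4 above pools 1 and 2. Eye pigment genes were lower, with a median of 16.6 FPKM and 19 of 20 detected. The pteridine genes *Hn* (375 ± 38.4 FPKM), *Pu* (286 ± 66.0) and *se* (194 ± 85.7) led, ahead of the ommochrome gene *v* (66.2 ± 33.5). The exception was *cn*, the kynurenine hydroxylase of the ommochrome pathway, with 3, 3, 0 and 4 counts. *w*, the pigment transporter gene whose mutant allele the label names, had 21.8, 23.2, 40.5 and 26.7 FPKM, and a gene table does not tell copies of a gene in a transgene from the gene in its place.

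Neuronal genes were present throughout at moderate levels. All 21 pan-neuronal genes were detected, with a median of 17.3 FPKM and 0.842, 0.664, 0.407 and 0.920% of the counts. *nrv3*, a sodium pump subunit of neurons, had 271, 208, 139 and 215 FPKM, and *nSyb*, the synaptobrevin whose promoter drives the Gal4 of these flies, had 219, 189, 129.7 and 202 FPKM. *Syt1*, the calcium sensor of transmitter release, had 101, 79.0, 52.4 and 108 FPKM. *elav*, which encodes the RNA-binding protein most used as a neuronal marker, was the lowest of the list at 4.20, 3.59, 2.44 and 5.74 FPKM. Every one of the 21 genes was lowest in pool 3, with a median of -0.65 from the mean of the pools on the log2 CPM scale, and 16 were highest in pool 4. These are long transcripts, with a median length of 10715 bases, against 2141 over all features that passed the expression filter. Over all those features 39.0% were lowest in pool 3 and 22.9% highest in pool 4.

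Among 14 genes that set the transmitter of a neuron, all were detected. *Gad1*, which makes GABA, had 185, 172, 140.4 and 176 FPKM. *ChAT*, which makes acetylcholine, had 29.1, 25.5, 16.1 and 28.0 FPKM, and *VGlut*, which loads glutamate into vesicles, 33.8, 25.6, 16.5 and 33.5 FPKM. Both were lowest in pool 3. *ChAT* over *Gad1* was 0.158, 0.148, 0.115 and 0.159. *ChAT* (chromosome 3R from 18705501 to 18732344) holds *VAChT* (from 18705501 to 18718916) within its span. Reads from where these genes overlap cannot be told apart, so the level of *ChAT* and this ratio are uncertain. *Ddc* (52.7 ± 7.48 FPKM) and *ple* (37.2 ± 12.8 FPKM) make dopamine in neurons and serve pigment formation in the cuticle. *Hdc*, which makes the histamine of photoreceptors, had 26.8 ± 4.23 FPKM and *SerT*, the serotonin transporter, was the lowest at 5.92 ± 1.08 FPKM.

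Of 40 neuropeptide genes 31 were detected. *Nplp3* and *Nplp2* stood far above the others at 7949.6 ± 1394 and 2924 ± 444 FPKM, and the next, the insulin-like peptide *Ilp2* of the brain's neurosecretory cells, had 95.3, 101, 110.3 and 73.4 FPKM. *CCHa2* had 87.4, 84.9, 86.5 and 59.8 FPKM, with pool 4 below the others, which differed by less than 3 FPKM. *Ms*, myosuppressin, had 68.7 ± 11.2 FPKM. Clock neuron peptide *Pdf* had 39.8, 47.0, 43.4 and 34.6 FPKM. At the low end lay *Akh*, a hormone of the corpora cardiaca behind the head, with 0.180, 0.297, 0.143 and 0.288 FPKM, and *Pburs*, with 0.182 ± 0.195 FPKM.

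All 17 glial genes were detected, and their spread between pools was small. *Gs2*, the glutamine synthetase of glia, had 795, 798, 847 and 831 FPKM, and *Eaat1*, the glutamate transporter of glia, 197, 201, 182 and 199 FPKM. The glial transcription factor gene *repo* had 16.6, 19.8, 20.3 and 20.6 FPKM. The median SD of log2 CPM over the 17 genes was 0.183, against 0.299 over all features tested. For all features of 2000 to 4000 bases it was 0.239, and the 17 genes had a median length of 3568 bases. *e*, which encodes the enzyme ebony that joins beta-alanine to histamine or dopamine, varied more, with 54.7, 43.3, 134 and 105 FPKM, pools 3 and 4 lying above pools 1 and 2.

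Fat body and yolk genes were also prominent. The yolk protein genes are expressed in the fat body of females, and the 3 took 3.90, 3.24, 3.46 and 3.51% of all counts. *Yp2* (FBgn0005391, X chromosome from 10050951 to 10052636) had 7919, 6412, 7323 and 7172 FPKM and its neighbour *Yp1* (FBgn0004045, from 10053811 to 10055498) had 4707, 3432, 2811 and 3477 FPKM, so *Yp2* exceeded *Yp1* in every pool. The SD of log2 CPM between the pools, each with as many males as females, was 0.132 for *Yp2*, 0.168 for *Yp3* and 0.311 for *Yp1*, against a median of 0.299 over all features tested. *fit*, another gene of female fat body, had 74.7, 81.5, 71.9 and 50.9 FPKM. In contrast *dsx* (1.89 ± 0.339 FPKM) and *fru* (4.52 ± 0.999), which set sexual fate in a few cells, were low. *Desat1*, a fatty acid desaturase, led the fat body list with 1553, 1461, 844 and 807 FPKM. *apolpp*, the precursor of the main lipid-carrying proteins, had 241, 206, 105 and 322 FPKM, and *FASN1*, a fatty acid synthase, 272, 223, 102 and 305 FPKM. The list took 1.14, 1.03, 0.549 and 1.10% of the counts.

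Muscle genes took 1.55, 1.60, 1.82 and 2.09% of the counts, with 23 of 24 detected. *Act57B*, a muscle actin, had 1362, 1365, 1548 and 1789 FPKM, *Mlc2* 1051, 1193, 1889.9 and 1316, and *Mhc*, the only muscle myosin heavy chain gene of the fly, 357, 353, 291 and 513. Genes of the flight muscle in the thorax were low. *Act88F* had 8.52, 8.38, 9.26 and 8.41 FPKM, so that *Act57B* exceeded it by 160, 163, 167 and 213 times, *fln* had 1.45 ± 0.252 FPKM and *TpnC4* a mean of 0.0558 FPKM on 5 counts in all. Blood cell genes were detected in 11 of 12 cases. *Col4a1*, a collagen, led at 105 ± 11.6 FPKM, and the markers *Hml* and *NimC1* had 15.9 ± 5.46 and 14.1 ± 2.48 FPKM. The lowest, *He*, had 1.51, 0.946, 0.0571 and 0.687 FPKM.

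Chemosensory receptors were nearly absent, and binding proteins were not. Detected were 2 of 51 odorant receptor genes, 0 of 51 gustatory receptor genes and 3 of 53 ionotropic receptor genes, set against 66.1% of all protein-coding genes. The 2 odorant receptors were *Or63a* (3.97, 3.43, 5.33 and 3.79 FPKM) and *Orco*, the shared co-receptor, at 2.81, 1.84, 2.20 and 1.67 FPKM. *Gr66a*, a bitter receptor, led its list with 1.13, 0.929, 0.874 and 0.681 FPKM. Ionotropic receptors were led by *Ir62a* (2.18 ± 0.816 FPKM), *Ir68a* (2.06 ± 0.227) and *Ir76b* (2.00 ± 0.172). Of odorant-binding protein genes 27 of 44 were detected. *Obp99c* had 1548, 2143, 2534 and 1805 FPKM and *Obp44a* 1055, 1035, 2020.0 and 1221 FPKM. Of the 3 genes taken as markers of the antenna, *Orco* was given above, and the others were also low, *lush* at 3.56, 3.90, 5.18 and 5.17 FPKM and *Obp83a* at 0.686, 0.928, 1.09 and 0.688 FPKM. Other binding protein genes were not low, such as *Obp28a* with 44.5, 25.5, 54.9 and 24.5 FPKM and *Obp56d* with 442, 548, 484 and 394 FPKM, both chosen after their values were seen. The labels do not say whether the antennae were still on the frozen heads.

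Cuticle protein genes were detected in 37 of 102 cases, led by *Cpr100A* with 249, 328, 273 and 336 FPKM, and 7 had 0 counts in all pools, among them *TwdlB* and *Ccp84Af*. Cytochrome P450 genes were detected in 54 of 81 cases, close to the 66.1% of all protein-coding genes. They took 0.632, 0.706, 0.612 and 0.465% of the counts. *Cyp6d5* had 648, 697, 699 and 377 FPKM, *Cyp6g1* 309, 322, 336 and 203 FPKM and *Cyp6a8* 308, 342, 137 and 59.9 FPKM. Pool 4 was lowest for all 3, and lowest for 30 of the 68 P450 genes that passed the expression filter, against 23.3% of all features tested. Organs outside the head left little trace. Of 33 digestive enzyme genes 4 were detected, *Mal-A5* (59.9 ± 5.70 FPKM), *Amy-d* (50.6 ± 10.9), *Amy-p* (8.78 ± 3.31) and *Mal-A1* (2.82 ± 0.468), while the serine proteases *Jon25Bi* and *Jon99Fi* had 0 counts. *Amy-p* and *Amy-d* are near-identical copies, so their counts may be shared. *alphaTry* had 1.01, 0.0463, 0 and 0 FPKM. *Acp26Aa* and *dj* of the male tract and *Cp36* of the eggshell had 0 counts, and the highest gene of these lists was the chorion gene *Cp19*, with 0.891, 2.32, 3.54 and 3.27 FPKM.

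Transcripts of energy metabolism and protein synthesis formed the most abundant groups. The mitochondrial genome took 7.54, 7.14, 8.96 and 4.92% of the counts. *mt:CoIII* and *mt:CoI*, subunits of complex IV, had 8876, 6234, 6364 and 4941 FPKM and 7978, 5859.7, 6817 and 4996 FPKM, and *mt:ATPase6* of complex V had 5089, 3527, 5001 and 2098 FPKM. Of 18 features of the mitochondrial genome that passed the expression filter, 17 were lowest in pool 4, against 23.3% of all features tested. Nuclear OXPHOS subunit genes were detected in 62 of 77 cases and took 2.80, 3.14, 4.33 and 3.33%. Apart from *ND-MWFE* and *ND-B8* (means of 0.627 and 0.0693 FPKM), those not detected carry a subunit name with an added L. Examples are *COX4L* and *ND-24L*, beside the detected *COX4* and *ND-24*. *ATPsynC* had 1508, 1484, 1691 and 1682 FPKM, *blw* 1363, 1401, 1429 and 1695 FPKM and *ATPsynbeta* 1156, 1339, 2042 and 1301 FPKM. Of 62 tested, 59 were highest in pool 3 and 54 lowest in pool 1, against 43.4 and 27.9% of all features tested. These are short transcripts, with a median length of 900 bases. Their median deviation from the mean of the pools was 0.47 log2 units in pool 3 and -0.29 in pool 1. For all features of 500 to 1000 bases it was 0.31 and -0.15. The lowest gene of the list was *ND-24L*, with 0 counts. *ND-75* (FBgn0017566, X chromosome from 8248651 to 8251687), the complex I subunit that the study targets in its other flies, had 268, 321, 512 and 309.7 FPKM (353 ± 109, SD, n = 4), with pool 3 highest and the other pools between 268 and 321.

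Glycolysis and TCA cycle enzymes were all detected (22 of 22) and took 1.95, 2.06, 2.19 and 2.16% of the counts. *Gapdh1* had 1120.3, 1322, 2045 and 1343 FPKM and its paralog *Gapdh2* 971, 1033, 985 and 945 FPKM. The lowest was *Ldh*, lactate dehydrogenase, with 7.82 FPKM in pool 1, which stood apart, and up to 14.4 FPKM in the others. Cytoplasmic ribosomal proteins were detected in 82 of 87 cases and took 7.18, 7.90, 9.47 and 7.39%. *RpLP2* had 1425, 1755, 3382 and 1939.5 FPKM. The 5 not detected were copies of genes that were, such as *RpS19b*, with 0, 3, 0 and 0 counts. Of 82 tested, 72 were highest in pool 3, against 43.4% of all features tested. These are short transcripts, with a median length of 921.5 bases. In pool 3 their median deviation from the mean of the pools was 0.34 log2 units. For all features of 500 to 1000 bases it was 0.31. Of heat shock genes 12 of 18 were detected, close to the 66.1% of all protein-coding genes. The constitutive *Hsc70-4* had 597, 677, 971 and 598 FPKM, while the inducible *Hsp70* copies, whose counts may be shared because they are near identical, lay between 0.0264 FPKM (*Hsp70Aa*) and 0.892 FPKM (*Hsp70Bb*).

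**Figure D3:**
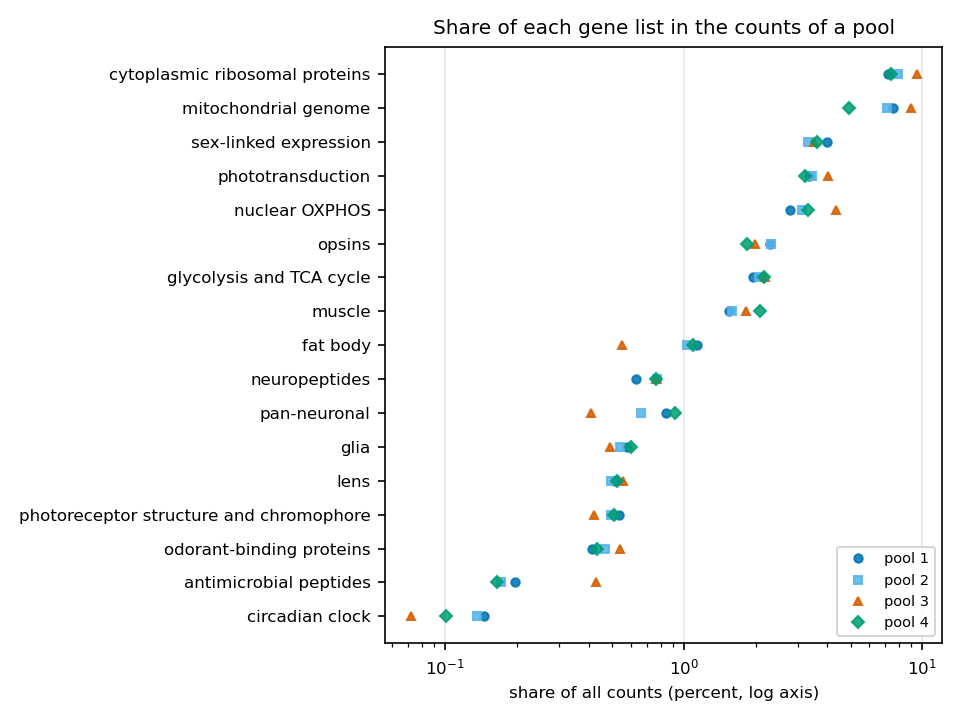
Share of all counts (percent, log axis) taken by 17 gene lists in each of the 4 control pools. Antimicrobial peptides are apart in pool 3 at 0.429% against 0.165 to 0.197% in the others, and the pan-neuronal, clock and fat body lists are lowest in pool 3.

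The 4 pools were alike in the rank of genes and differed in detail. The Pearson correlation of log2 CPM across 9713 features, which are not independent of each other, was 0.991 for pools 1 and 2, 0.988 for 1 and 4 and 0.989 for 2 and 4, and 0.960 to 0.973 for the pairs with pool 3. The median absolute difference between 2 pools was 0.180 to 0.187 log2 units among pools 1, 2 and 4 and 0.415 to 0.526 with pool 3. The common biological coefficient of variation, the spread beyond counting noise as edgeR estimates it, was 0.243 over the 4 pools and 0.143 without pool 3. Leaving out pools 1, 2 or 4 in turn gave 0.260, 0.281 and 0.256. The median SD of log2 CPM was 0.299, and 48 features (0.494%) had an SD above 1.

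Pool 3 carried most of the difference. The first principal component held 71.7% of the variance between pools, with scores of -20.5, -6.59, 45.7 and -18.6 for pools 1 to 4. Pool 3 was the highest or lowest pool for 82.3% of features, against 50.3% for pool 1, 21.2% for pool 2 and 46.2% for pool 4. A pool was called apart where its gap to the nearest other pool, over the whole range, passed Dixon's 95% critical value for 4 values. This held for 786 of 9713 features (8.09%), of which 637 (6.56% of the 9713) concerned pool 3, 61 pool 4, 52 pool 1 and 36 pool 2. Pool 3 was the high one in 365 and the low one in 272 of these. With libraries scaled by total counts the split was 213 high and 398 low, so neither direction prevails under all scalings.

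The deviation of pool 3 followed feature length. It was 0.22 log2 units above the mean of the pools for features of up to 500 bases, 0.31 for those of 500 to 1000 and 0.28 for those of 1000 to 2000, and then fell below the mean, to -0.49 for 4000 to 8000 and -0.66 over 8000 bases. Pool 4 went the other way, at -0.16 for 500 to 1000 bases and 0.43 over 8000, as did pool 1 (-0.15 and 0.22), while pool 2 stayed within 0.06 of the mean in every class. Across the 9713 features the correlation of log2 length with the deviation was 0.391, 0.074, -0.573 and 0.499 in pools 1 to 4. What part length-related differences between the libraries had in the results for single genes was not tested.

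**Figure D4:**
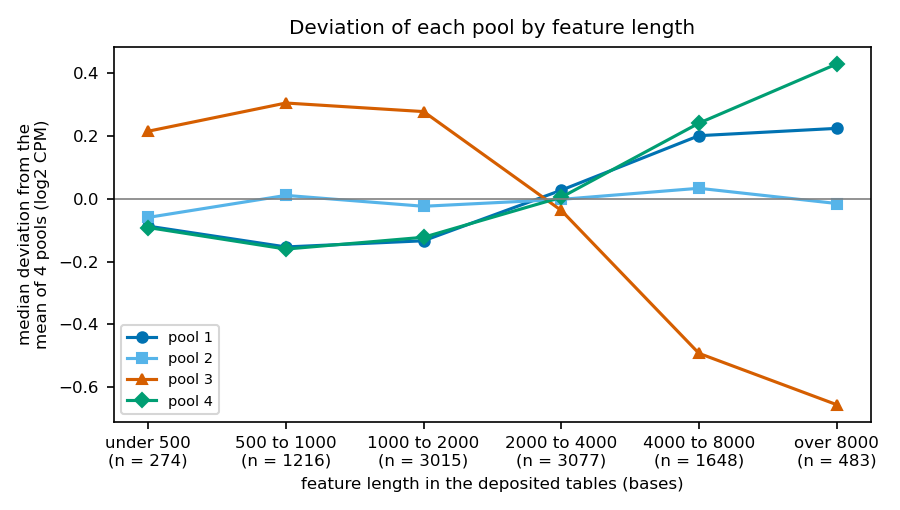
Median deviation of each control pool from the mean of the 4 pools (log2 CPM) in 6 classes of feature length, with the number of features in each class. Pool 3 lies above the mean for features under 2000 bases and at -0.66 for those over 8000, and pools 1 and 4 run the opposite way.

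Some gene groups varied more than others. Of the lists with more than 1 member that passed the filter, antimicrobial peptides had the highest median SD of log2 CPM, 0.726. The pan-neuronal list followed at 0.557 and odorant receptors at 0.508, the latter on 6 of 51 members. Pan-neuronal genes had a median length of 10715 bases, and all features over 8000 bases had a median SD of 0.501. All features under 500 bases, the class of most antimicrobial peptide genes, had 0.378. Glycolysis and TCA enzymes (0.160), lens genes (0.152) and glia (0.183) had the lowest. The lens list has only 3 members, of which *Cpr72Ec* had 0.807. The glycolysis and glia lists had median lengths of 2177 and 3568 bases. All features of 2000 to 4000 bases had a median SD of 0.239, the lowest of the length classes. Without pool 3 the antimicrobial list was at 0.386, the pan-neuronal list at 0.344 and all features at 0.159. In all, 19 lists had a median SD above that of all features.

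Antimicrobial peptides are secreted by the fat body and other tissues under the Toll and Imd pathways, and 28 of 30 were detected in these unchallenged heads. They were highest in pool 3 in 22 of 28 cases and in pool 4 in 0, against 43.4 and 22.9% of all features tested. *AttC*, an attacin, had 338, 281, 1072 and 299 FPKM, with pool 3 above all others, which did not exceed 338. *DptB*, a diptericin, had 290.4, 229.8, 1107 and 315 FPKM, and *AttB* 247, 133, 892 and 158 FPKM. *DptA* (299.6, 141, 479 and 285 FPKM) was also highest in pool 3, by a smaller gap. *BomBc2* and *BomS3*, peptides of the Bomanin family induced by Toll, varied less, with 274, 391, 614 and 275 FPKM and 318, 403, 505 and 245 FPKM. The cecropins did not follow pool 3 alone. *CecB* had 69.8, 8.24, 40.3 and 13.1 FPKM, with pools 1 and 3 above pools 2 and 4, as did *CecA2* with 134, 35.1, 212 and 42.8 FPKM. *AttA*, at 6.18, 1.91, 18.3 and 2.85 FPKM, is a near copy of *AttB*, and counts may be shared between them. These are short transcripts, with a median length of 394.5 bases, a class in which pool 3 was 0.22 log2 units above the mean. The median antimicrobial peptide gene lay 0.78 above it.

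Among 11 circadian clock genes, the repressor genes *per*, *tim* and *vri* set pools 1 and 2 against pools 3 and 4. *per* and *tim* encode the repressors of the molecular clock and *vri* a repressor of *Clk*, and their transcripts rise and fall over the day. *tim* had 41.8, 40.2, 7.94 and 13.2 FPKM, *vri* had 40.3, 40.1, 7.09 and 12.9 FPKM and *per* had 22.9, 22.2, 6.81 and 9.24 FPKM. In all 3 the values of pools 1 and 2 differed by under 2 FPKM and lay far above those of pools 3 and 4. *Clk* itself, an activator of the loop, had 4.28, 3.88, 2.84 and 6.19 FPKM, with pool 4 highest, and *vri* over *Clk* was 9.40, 10.3, 2.49 and 2.08. *cyc*, its partner, had 23.6, 24.2, 37.8 and 21.3 FPKM, and *cry*, the blue-light receptor, 118, 131, 159 and 127 FPKM. *Pdp1* (29.5, 22.5, 9.84 and 20.6 FPKM) and *cwo* (11.8, 9.82, 3.93 and 8.91 FPKM) were lowest in pool 3 with pool 4 nearer to pools 1 and 2. The 11 genes had a median length of 4668 bases. Their median deviation from the mean of the pools was -0.60 log2 units in pool 3 and -0.06 in pool 4. For all features of 4000 to 8000 bases it was -0.49 and 0.24. What part length had in the clock gene values was not tested. Of all 9713 features tested 1299 (13.4%) had pools 1 and 2 both above pools 3 and 4, and 1429 (14.7%) had them both below. Genes of the first kind, chosen after their values were seen, were *Desat1* and *Lsp2*, a storage protein gene of fat body, at 92.2, 91.8, 32.2 and 44.5 FPKM. In *e* the direction was the opposite of that in *tim*, *vri* and *per*. *CG11426*, among the 20 most variable features, was also of the first kind, with 212, 279, 33.7 and 20.7 FPKM. Whether the time of collection differed between pools was not tested, since the labels give none.

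The most variable feature of all was *phu*, at 0.545, 1.09, 0.723 and 29.5 FPKM (SD of log2 CPM 2.64), which was high in pool 4 alone. *TotM*, a Turandot gene of the humoral stress response, had 17.2, 7.93, 3.90 and 108 FPKM, and *Diedel*, a secreted regulator of immune signalling, 4.53, 2.30, 1.66 and 13.4 FPKM, both with pool 4 highest. *CG14118* had 0.502, 5.05, 5.59 and 12.3 FPKM, with pool 1 lowest. The cuticle genes *Edg91* (2.08, 1.51, 8.09 and 0.766 FPKM) and *Cpr66D* (9.59, 1.41, 9.06 and 2.60 FPKM) were also among the 20 most variable features, as were *vri* and 5 antimicrobial or related immune genes, *CecB*, *AttA*, *CecA2*, *AttB* and *edin*. Features apart in pool 4 included *Sclp*, with 85.8, 98.3, 100.2 and 32.8 FPKM, and *GstD2*, a glutathione transferase, with 17.6, 15.3, 15.9 and 6.43 FPKM. In pool 2 it was *Hsp27*, a small heat shock protein gene, with 3.23, 6.22, 3.37 and 2.97 FPKM, and in pool 3 *spirit*, a serine protease of the Toll pathway, with 12.4, 12.6, 35.4 and 11.8 FPKM. In pool 1 the largest distance was that of *CG12288*, at 0.309, 0.993, 1.01 and 0.908 FPKM, and of the features apart there 24 were high and 28 low.

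**Figure D5:**
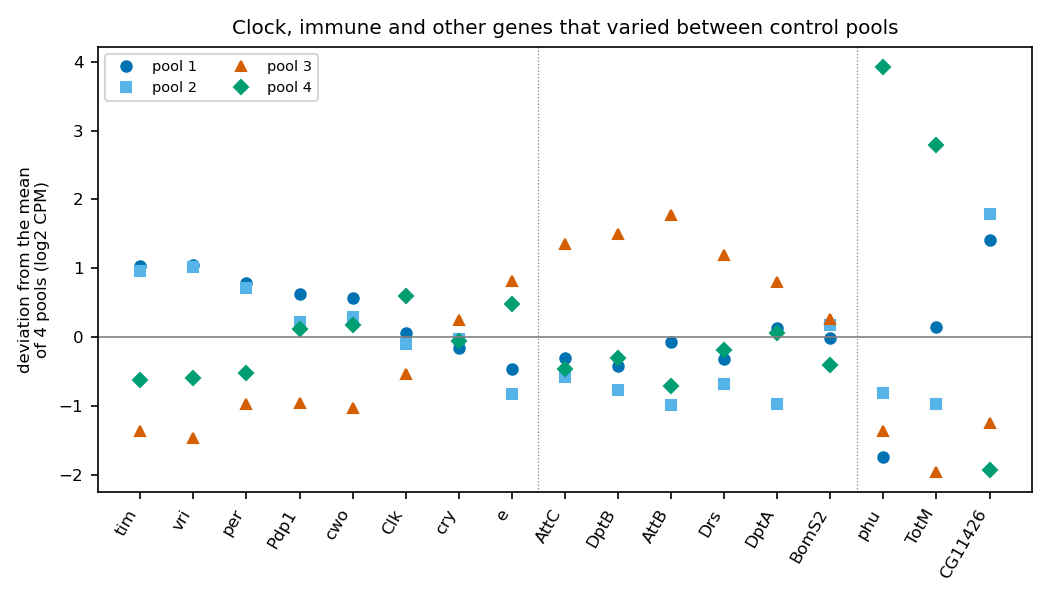
Deviation of each control pool from the mean of the 4 pools (log2 CPM) for clock genes with ebony (left), antimicrobial peptide genes (middle) and other variable genes (right). Pools 1 and 2 lie together above pools 3 and 4 for tim, vri and per, pool 3 is highest for the antimicrobial genes shown, and pool 4 is highest for phu and TotM.

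Of the 10 features with the smallest spread, 4 are given here. *CG2246* had 33.0, 32.9, 33.2 and 32.7 FPKM (SD of log2 CPM 0.00962), *Pex6*, a gene of peroxisome assembly, 12.7, 12.6, 12.6 and 12.4 FPKM, and *Pgi*, the glucose-6-phosphate isomerase of glycolysis, 357, 369, 364 and 362 FPKM. *Tif-IA*, a factor of rRNA transcription, had 15.9, 15.9, 16.2 and 16.1 FPKM. Among 10 genes often used as references in quantitative PCR, *RpL32* (929.9, 982, 941 and 828 FPKM) and *eIF1A* (175 ± 12.2 FPKM) were the most even, with SDs of log2 CPM of 0.0957 and 0.0960. *alphaTub84B* (719, 828, 1354 and 759 FPKM) and *Gapdh1* were higher in pool 3, and *eEF1alpha1* (2519, 2624, 1644 and 2208 FPKM) was lower, so these 3 did not keep one level across the control pools. *Tbp*, at 5.95 ± 0.758 FPKM, was the lowest of the reference genes.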

How the data were processed

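RNA was measured in 4 pools of control heads, each a library sequenced as Illumina read pairs after a kit that keeps no strand. The authors deposited a count for each feature and library, the feature's length and an FPKM value. Read trimming, alignment and counting are credited in the submitters' notes to fastp, HISAT2 and featureCounts, with DESeq2 also named, and no version or build is given in the sources used here. Of the 17444 identifiers 17385 were found in the Ensembl BDGP6 annotation, 17370 with the same coordinates. The deposited FPKM equals the count over length and a library size of 0.951 to 1.07 of the total count. Not used were 56 columns of single libraries (knockdown libraries and normalised values), the authors' fold changes and p-values, and the table without controls.

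A feature was called detected at 1 FPKM or more in all 4 pools. The spread between pools was taken from log2 CPM after edgeR 4.0.16 (R 4.3.3) TMM scaling and its expression filter, which 9713 features passed, and the steps were tested on simulated data. DESeq2 1.42.0 size factors, total counts, other minimums and leaving out each pool were alternatives. The members and the 31 gene lists were chosen with earlier results of these data known, and 11 symbols of the lists were not analysed here. The rule for genes that could be named took the 25 highest features, the 4 highest of each biotype, the 6 highest, the lowest and any at 0 of a list, the 20 most and 10 least variable features, and for each pool the 8 features farthest apart. Other genes named beside a list, such as *per*, *cwo*, *Pdf* and *Akh*, were chosen after their values were seen. Depth was 20072771 to 30321577 counts per pool.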

Additional observations from a re-analysis of the deposited data

Results flagged for a closer look

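Within each group of 4 pools, 254 features named by a rule and 65 shares, ratios and library measures were compared for a pool that stood apart, by Dixon's 95% criterion. It held for 43 features and 3 other measures, and chance alone gives about 1 in 20 groups. Of the 43 features, 32 had been named because of their gap, so their number is no result. The remaining 11 came from 222 features named on other grounds. Neither 11 of 222 nor 3 of 65 is more than 1 in 20, and over all 9713 features the share was 8.09%. No cause was tested for any of them.

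Pool 1 had the lowest share of counts from neuropeptide genes, 0.628%, with the other pools at 0.765 to 0.775%. *Nplp3* and *Nplp2*, far above the other members, were both lowest in pool 1, at 6193 and 2394 FPKM. Of 32 members that passed the expression filter, 15 were highest and 5 lowest in pool 1, against 22.4 and 27.9% of all features tested. Pool 3 had the highest share from antimicrobial peptide genes, 0.429%, with the others at 0.165 to 0.197%. In pool 4 *Act57B* exceeded *Act88F* by 213 times, with the others at 159.9 to 167.

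Among the features named on other grounds the values were as follows. Pool 1 was below the others for *Ldh* at 7.82 FPKM (others up to 14.4). Pool 3 was above the others for *Arr2* at 9353 FPKM (others 4424 to 4767) and *PyK* at 1381 FPKM (others 769 to 813). Pool 3 was below the others for *Ald1* at 466 FPKM (others 548 to 559), *dco* at 16.0 FPKM (others 20.5 to 21.2) and *Eaat1* at 182 FPKM (others 197 to 201). It was also below them for *eys* at 35.3 FPKM (others 67.3 to 70.8). Pool 4 was below the others for mt:srRNA at 117 FPKM (others 238 to 267), *Cyp6g1* at 203 FPKM (others 309 to 336) and *CCHa2* at 59.8 FPKM (others 84.9 to 87.4). It was also below them for *Cyp6d5* at 377 FPKM (others 648 to 699).

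Those named for their gap had these values. Pool 1 was above the others for *CG13679* at 2.08 FPKM (others 0.944 to 1.07), *Or82a* at 0.877 FPKM (others 0.346 to 0.378) and *CG30466* at 1.48 FPKM (others 0.800 to 0.830). It was also above them for lncRNA:CR45517 at 4.37 FPKM (others 1.89 to 2.11). Pool 1 was below the others for *DNApol-alpha73* at 0.351 FPKM (others 0.838 to 0.896), *CG12288* at 0.309 FPKM (others 0.908 to 1.01) and *CG3594* at 1.96 FPKM (others 4.24 to 4.82). It was also below them for *CG13840* at 0.314 FPKM (others 0.610 to 0.673). Pool 2 was above the others for *Hsp27* at 6.22 FPKM (others 2.97 to 3.37), *CG18302* at 24.2 FPKM (others 14.8 to 15.6) and *Cpr49Ac* at 0.376 FPKM (others 0.175 to 0.200). It was also above them for *Zasp67* at 4.25 FPKM (others 2.53 to 2.73). Pool 2 was below the others for *gt* at 0.514 FPKM (others 0.797 to 0.864), *Blos3* at 1.20 FPKM (others 1.97 to 2.11) and lncRNA:CR45910 at 0.145 FPKM (others 0.247 to 0.270). It was also below them for FBti0062175 at 1.03 FPKM (others 1.78 to 1.80). Pool 3 was above the others for *spirit* at 35.4 FPKM (others 11.8 to 12.6), *CG10814* at 4.96 FPKM (others 0.719 to 0.955) and *AttC* at 1072 FPKM (others 281 to 338). It was also above them for snoRNA:Psi28S-1232 at 12.8 FPKM (others 3.06 to 3.95). Pool 3 was below the others for *hb* at 0.311 FPKM (others 1.06 to 1.21), *Mur2B* at 0.743 FPKM (others 2.23 to 2.73) and *CG2120* at 0.400 FPKM (others 1.27 to 1.46). It was also below them for *MED25* at 1.29 FPKM (others 3.94 to 4.07). Pool 4 was above the others for *phu* at 29.5 FPKM (others 0.545 to 1.09), FBti0062111 at 2.01 FPKM (others 0.641 to 0.695) and RR48364_transposable_element at 0.241 FPKM (others 0.103 to 0.111). Pool 4 was below the others for *GstD2* at 6.43 FPKM (others 15.3 to 17.6), *Sclp* at 32.8 FPKM (others 85.8 to 100.2) and *CG8292* at 0.335 FPKM (others 0.919 to 0.974). It was also below them for *CCAP* at 0.444 FPKM (others about 1.05) and *CG30105* at 0.625 FPKM (others 1.96 to 2.22).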

How the results depend on the processing

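No paired analysis was possible because the results come from no test and there is a single group of 4 pools.

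The share of counts in the 100 highest features was 32.9% and 29.0% without the mitochondrial genome, and 31.8 to 33.7% with each pool left out. The biological coefficient of variation was 0.243 and ran from 0.143 (without pool 3) to 0.281 (without pool 2). Features with a pool apart numbered 786, and 2738 with no filter on low counts. Leaving out a pool could not be tried there, since the criterion needs at least 4 pools. The X over the arms was 0.966, 1.18 over all protein-coding genes and 0.922 at 5 FPKM or more, and 0.961 to 0.974 with a pool left out. Pool 3 was high in 365 and low in 272 features apart, in 308 and 307 with DESeq2 size factors and in 213 and 398 with total counts.

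Detected features ran from 8740 to 8903 with a pool left out. The share of all lists was 37.7 to 40.0%, lists over the 90th percentile numbered 10 to 11 (9 among genes of at least 1 FPKM), and lists above the median spread 13 to 20. Without pool 3 the spread moved in 23 of 30 cases, those of the lists and all features. That 22 of the 25 highest features remained without pool 3 was computed after seeing the data. Levels rest on 4 pools of 1 age and genotype, and depth limits features with few counts.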
